A study of Mus musculus with 19 samples.

Results

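The duodenum of mice lacking Hfe was compared with that of wild-type mice. The comparison rests on 4 of the 19 arrays of the series, namely the duodenum arrays whose titles name the Hfe knockout (Hfe-/- 1 and Hfe-/- 2) or wild type (wild-type 1 and wild-type 2), each hybridised with RNA from a single male C57BL/6 mouse fed a standard rodent diet. Hfe-/- mice carry a homozygous disruption of Hfe in all tissues. Each group is thus 2 mice, and the smallest two-sided p that an exact permutation test can give for 2 against 2 is 0.333. The labels give ages of 10 and 11 weeks for the Hfe-/- mice and 12 and 13 weeks for the wild-type mice, whereas the study's methods give the same age for both groups. The label ages run on by 1 week per array in each tissue, so that the wild-type livers, which per the methods came from the same mice, are given as 13 and 14 weeks. It is thus in doubt whether the label ages are real. If they are, age and genotype cannot be told apart. The study left out 1 further Hfe-/- duodenum sample because it diverged from the others in quality control, and that sample was not analysed here. The other 5 duodenum arrays, 3 from wild-type mice on an iron-enriched diet and 2 from mice on a control diet (ages 16 to 18 weeks), and the 5 liver arrays of Hfe-/- and wild-type mice served for reference.

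Hfe is an atypical major histocompatibility complex (MHC) class I protein that binds the transferrin receptor and takes part in the signal by which hepatocytes adjust the hormone hepcidin to iron stores. Hepcidin removes the iron exporter ferroportin from the cell surface, and loss of Hfe causes hereditary hemochromatosis, in which hepcidin is too low and iron absorption too high. The duodenum is where dietary iron is absorbed. There the reductase Cybrd1 and the transporter Slc11a2 bring iron into the enterocyte, ferritin stores it, and ferroportin (Slc40a1) with the oxidase hephaestin (Heph) passes it to the blood. The duodenum lies between the stomach and the jejunum and against the pancreas, so a piece of it can hold neighbouring tissue.

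Values are bead signals after quantile normalisation over the 9 duodenum arrays, on a log2 scale, so that a difference of 1 is a doubling. A probe was taken as detected on an array when its signal exceeded that of the negative control beads at a detection p under 0.05. Between 14996 and 16965 of 46632 probes were detected on the 4 arrays, and the 16599 detected on 2 or more of them were tested. Enterocyte genes were well expressed on all 4: villin (Vil1) lay between 10.82 and 11.65, and apolipoprotein A-I (Apoa1) between 12.62 and 13.36. The probes of the fatty acid binding proteins Fabp1 and Fabp2, abundant products of the enterocyte, were not detected on any of the 9 duodenum arrays. Across the tested probes, Hfe-/- 1 correlated with Hfe-/- 2 at 0.976 and wild-type 1 with wild-type 2 at 0.9709, while the 4 pairs of different genotype ranged from 0.9636 to 0.9768. The range across genotypes thus enclosed both values within a genotype. Wild-type duodenum differed from control-diet duodenum at 1775 probes (9.61%) by limma at an adjusted p under 0.05, although neither group was treated.

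A single probe passed the test between Hfe-/- and wild-type duodenum. With limma and Benjamini-Hochberg adjustment over all 16599 probes, 1 was higher in Hfe-/- (0.00602%) and 0 were lower. An unadjusted p under 0.05 was met by 1146 probes, where chance alone gives 830. A looser rule was therefore used to describe gene groups: an unadjusted limma p under 0.05 together with a change of at least 1.4-fold. Hereafter, a gene is called higher or lower by this rule, and such a call is not a test passed after adjustment. It took 239 probes as higher (1.44%) and 197 as lower (1.19%), so that 54.8% of these calls were higher. With arrays scaled by their median instead of quantiles the same rule took 69 as higher and 11 as lower, or 86.2% higher. When each array was left out in turn, 88 of the 239 higher calls (36.8%) and 57 of the 197 lower calls (28.9%) were made every time. Both Hfe-/- arrays lay above both wild-type arrays at 2373 probes (14.3%) and below both at 3469 (20.9%). Over all tested probes 43.4% had a higher and 56.6% a lower mean in Hfe-/- duodenum. The median difference was −0.02 and the median absolute difference 0.1.

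The probe that passed was ILMN_2417233, for which the annotation used here gives no gene symbol. Its signal was 8.73 and 8.77 on the Hfe-/- arrays and 6.40 and 6.49 on the wild-type arrays, where it was not detected. The difference was 2.31 (SE 0.11, limma adjusted p = 0.0294). Because the wild-type signal is at background, it stands for a change of at least 4.12-fold. The lowest detected signal of each wild-type array was taken as the floor. The probe passed the detection filter only through the Hfe-/- arrays and so had to differ. Without the detection filter its limma adjusted p was 0.00838. The probe was detected on 5 of 5 Hfe-/- arrays of the series and on 0 of the 14 others, whose highest signal was 6.56. In liver the Hfe-/- arrays read 10.53, 10.44 and 10.36, at least 14.7-fold over wild-type liver. The lowest signal on any Hfe-/- array, in either tissue, was 8.73. According to the methods liver and duodenum came from the same mice, so these arrays are not independent samples. The call was lost with the array left out in 2 of 4 cases: without Hfe-/- 1 the adjusted p was 0.0993 and without Hfe-/- 2 it was 0.194, with differences of 2.33 and 2.28. Of the 10 probes with the smallest p, 8 had no gene symbol, against 23% of all tested probes.

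**Figure D1:**
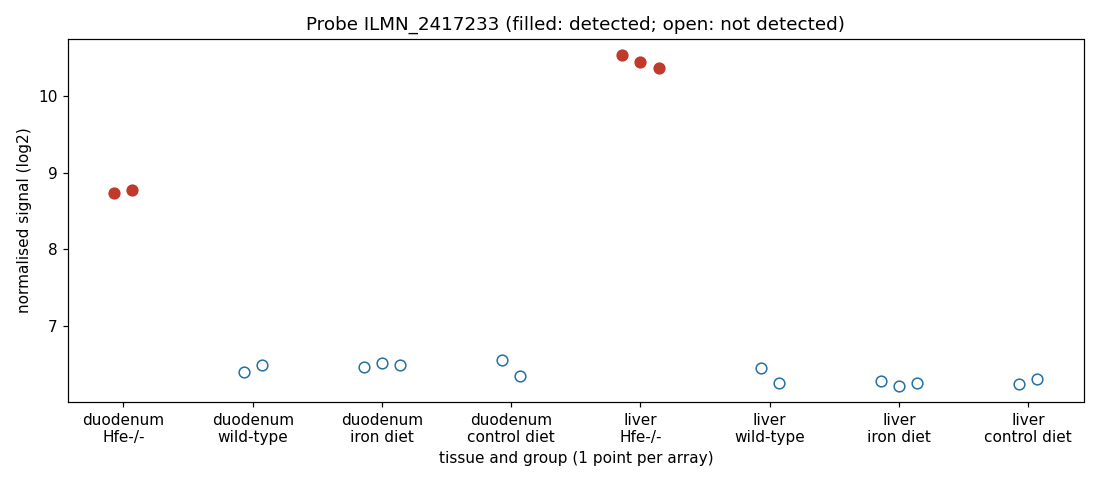
Normalised log2 signal of probe ILMN_2417233 (y axis) on all 19 arrays by tissue and group (x axis), 1 point per array, filled where the probe was detected. The 5 Hfe-/- arrays lie at or above 8.73 and the other 14 at or below 6.56.

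The targeted gene gave no check of the genotype in this tissue. The Hfe probe read 6.54 and 6.47 on the Hfe-/- arrays and 6.55 and 6.53 on the wild-type arrays and was not detected on any duodenum array. No source used here says whether it lies inside the disrupted part of the gene.

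Genes of iron handling differed little. Of 16 tested genes for iron uptake, storage and export, 0 passed the adjusted limma test, 0 were called higher and 1 lower (6.25%, against 1.19% of all probes). The median difference was −0.04, close to the −0.02 over all probes, or 0.09 with median scaling. Slc11a2, the importer of ferrous iron, read 9.34 and 9.24 in Hfe-/- and 9.38 and 9.21 in wild-type duodenum, a difference of −0.01 (SE 0.12). Ferroportin (Slc40a1) read 12.19 and 12.53 against 11.96 and 12.24, a difference of 0.26 (SE 0.17). These groups overlapped. Cybrd1, the ferric reductase of the brush border, read 8.81 and 8.26 against 8.12 and 9.07, and both its lowest and its highest value came from wild-type mice. Heph differed by 0.04 (SE 0.19) and the transferrin receptor Tfrc by −0.12 (SE 0.19). Ferritin heavy chain (Fth1) was lower on both Hfe-/- arrays, with 13.37 and 13.69 against 13.81 and 13.98, a difference of −0.36 (SE 0.15) that did not meet the looser rule and became 0.01 with median scaling. The gene called lower was heme oxygenase 1 (Hmox1), which frees iron from heme, with 7.08 and 6.95 against 7.35 and 7.73. Its difference of −0.52 (SE 0.16) was −0.33 without wild-type 2 and −0.45 without Hfe-/- 2, and neither was a call.

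Of 16 tested genes of iron sensing and the hepcidin pathway, 1 was called higher (6.25%, against 1.44% of all probes) and 1 lower (6.25%, against 1.19%). The median difference was 0.07. Id2, a target of bone morphogenetic protein (BMP) signals, read 8.46 and 7.80 against 7.34 and 7.64. Its call was lost without Hfe-/- 1 (difference 0.31) or wild-type 1 (0.49), and its other probe had the opposite sign. Bmp4, a BMP ligand, read 7.59 and 7.75 against 8.49 and 8.08, and its call was lost without Hfe-/- 1 (−0.53) or wild-type 1 (−0.41). Both calls thus rested on single arrays. Hepcidin itself (Hamp), the receptor Tfr2, the coreceptor Hjv and the ligand Bmp6 were not detected on any of the 9 duodenum arrays. Hamp2, the second hepcidin gene of the mouse, read 8.23 and 10.89 against 9.50 and 6.66. Its groups overlapped.

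**Figure D2:**
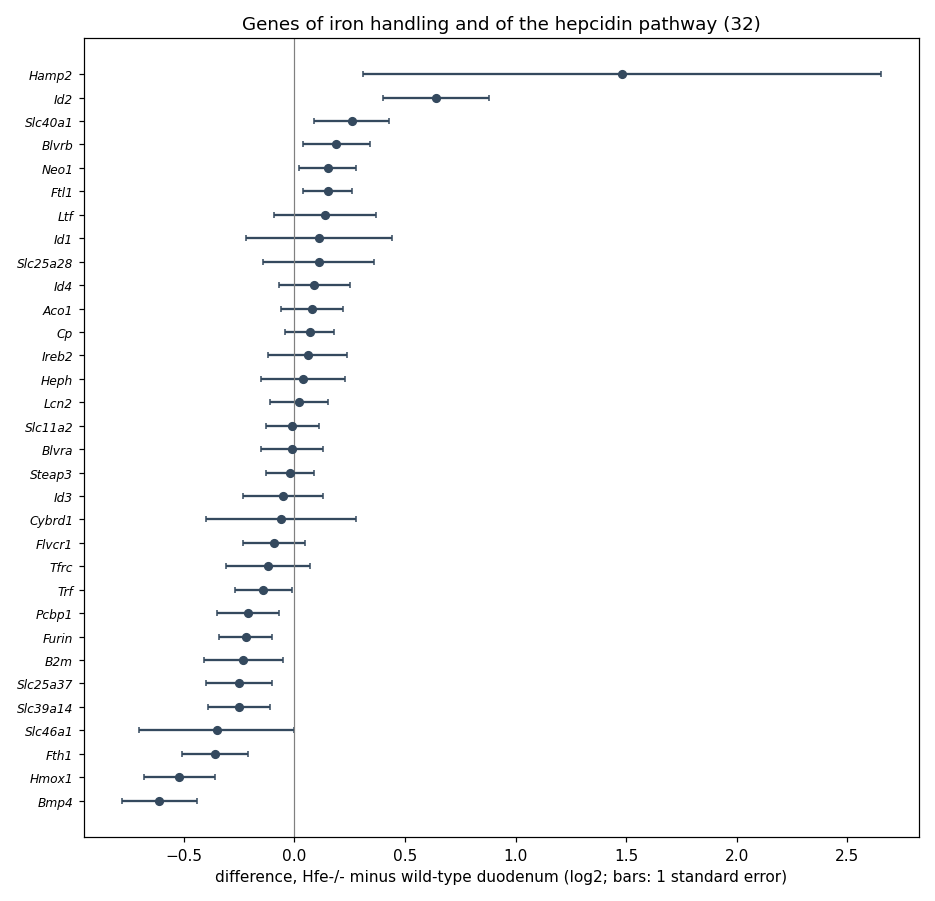
Difference between Hfe-/- and wild-type duodenum (x axis, log2, bars 1 standard error from limma) of the 32 tested genes of both iron lists (y axis). Most lie within 0.3 of zero, Hamp2 has the widest error, and Hmox1 and Bmp4 are the lower calls.

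The largest differences between the groups were those of pancreatic digestive enzymes, and they came from single arrays. Over 36 tested genes of pancreatic acinar cells, the exocrine cells that make and secrete digestive enzymes, the mean signal was 11.15 on Hfe-/- 1, 12.66 on Hfe-/- 2, 11.36 on wild-type 1 and 7.98 on wild-type 2, and 11.13 to 11.50 on the 5 arrays of the diet experiment. Wild-type 2 was thus low and Hfe-/- 2 high, while Hfe-/- 1 and wild-type 1 were near the diet arrays. Wild-type 2 was lowest of the 4 in 34 of the 36 genes, Hfe-/- 2 was highest in 32, and wild-type 1 was above Hfe-/- 1 in 27. The median difference of 2.29 (4.90-fold) was 0.55 (1.46-fold) without wild-type 2 and 3.74 (13.4-fold) without wild-type 1. It was 1.17 (2.25-fold) without Hfe-/- 2 and 3.35 (10.2-fold) without Hfe-/- 1. Although 35 of the 36 differences were positive, 0 passed the adjusted limma test, 4 (Klk1, Serpini2, Gp2 and Bhlha15) were called higher, or 11.1% against 1.44% of all probes, and the groups were separate in 7, or 19.4% against 14.3%.

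Cela3b, a pancreatic elastase, read 13.42 and 14.81 on the Hfe-/- arrays and 13.66 and 6.75 on the wild-type arrays, with 13.39 to 13.79 on the diet arrays. Its difference of 3.91 had an SE of 2.12 and an unadjusted limma p of 0.118. Carboxypeptidase B (Cpb1) read 12.42 and 14.25 against 12.52 and 6.82, and bile salt-activated lipase (Cel) 12.07 and 14.12 against 12.54 and 6.97. In each of these the wild-type arrays stood far apart and the Hfe-/- arrays lay on either side of wild-type 1. Cela2a, another elastase, was the brightest of all probes on Hfe-/- 1, Hfe-/- 2 and wild-type 1, and had rank 3630 on wild-type 2. Amylase (Amy2a5) had ranks 2, 4 and 3 on the same arrays and rank 1501 on wild-type 2. The trypsinogen Prss2 was among the 7 whose groups were separate, with 9.79 and 11.89 against 9.57 and 6.20, a difference of 2.96 (SE 1.19, unadjusted limma p of 0.0513). Bhlha15 (Mist1), a transcription factor of secretory cells, read 8.42 and 9.96 against 7.92 and 7.44. Its difference of 1.51 (SE 0.50) remained a call whichever array was left out, at 0.74 without Hfe-/- 2 and 2.29 without Hfe-/- 1. Gp2, the major membrane protein of zymogen granules, read 10.81 and 12.48 against 10.64 and 9.10, and its call was lost without Hfe-/- 2 (difference 0.95) or wild-type 2 (1.01). Among 7 tested genes of the pancreatic islet the list means of 7.27 and 7.80 against 7.67 and 7.11 lay closer together, but the insulin gene Ins2 varied between the same arrays, with 7.84 and 9.55 against 9.21 and 6.49. It was not detected on wild-type 2, where 4 of 8 islet genes were detected, against 7 or 8 on the other arrays.

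Promoters of 2 of these enzymes are shown for reference. Any part of the promoters in the variation between arrays was not tested. The sequences are from RefSeq (GRCm38.p6) and run from 250 bases before the gene start to 50 after it, with capitals marking the E-box CACCTG on either strand, a core to which basic helix-loop-helix factors of acinar cells can bind. Promoters were found for 19 of 21 tested enzyme genes, of which 12 (63.2%) held the motif, against 6098 of 27025 genes in all (22.6%). Cela3b lies on the minus strand at chr4:137430471-137430770 and Cel on the minus strand at chr2:28563354-28563653. A match describes the letters of the window and is not evidence of binding.
Cela3b: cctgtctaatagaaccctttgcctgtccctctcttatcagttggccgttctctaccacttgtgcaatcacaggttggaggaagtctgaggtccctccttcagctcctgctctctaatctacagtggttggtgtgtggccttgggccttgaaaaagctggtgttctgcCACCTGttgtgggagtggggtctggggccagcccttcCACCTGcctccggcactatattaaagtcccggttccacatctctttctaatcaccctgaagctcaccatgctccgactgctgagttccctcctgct
Cel: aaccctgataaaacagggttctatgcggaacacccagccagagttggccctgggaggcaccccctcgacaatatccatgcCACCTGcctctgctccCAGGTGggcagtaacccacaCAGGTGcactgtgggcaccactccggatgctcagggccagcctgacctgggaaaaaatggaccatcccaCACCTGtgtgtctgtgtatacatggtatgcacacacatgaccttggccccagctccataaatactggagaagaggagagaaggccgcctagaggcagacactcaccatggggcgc

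Transcripts of the gastric surface set another array apart. Over 14 tested genes of gastric surface mucous and pit cells, which line the stomach, the mean signal was 11.34 and 10.09 on the Hfe-/- arrays, 7.87 on wild-type 1 and 11.05 on wild-type 2, and 6.75 to 6.99 on the diet arrays. Here wild-type 1 was low, being the lowest of the 4 in 12 of 14 genes. The list means of all 4 arrays were above those of the diet arrays. Gastrokine 2 (Gkn2), a secreted product of these cells, read 13.89 and 13.20 against 6.31 and 13.67, and gastrokine 1 (Gkn1) 14.22 and 13.40 against 6.74 and 14.06. Trefoil factor 1 (Tff1), which is secreted with gastric mucus, read 14.81 and 14.01 against 9.61 and 14.98. All 3 had an SE of at least 1.63 on their differences of 3.56, 3.42 and 2.12. Of the 14 genes 13 were positive and 0 met either rule, and the median difference of 0.97 became −0.23 without wild-type 1 and 2.38 without wild-type 2. Without wild-type 1 the differences were −0.12 for Gkn2, −0.24 for Gkn1 and −0.57 for Tff1.

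Markers shared by gastric glands and the Brunner glands of the proximal duodenum were high on all 4 arrays. Pepsinogen C (Pgc) read 13.38 and 12.92 against 12.76 and 13.66, with 7.0 to 7.44 on the diet arrays. Muc6, the gel-forming mucin of gastric and Brunner glands, was lower in Hfe-/- by the looser rule, with 11.24 and 11.64 against 11.98 and 12.61, and was not detected on any diet array. Its difference was −0.85 (SE 0.25), −0.65 without Hfe-/- 1 and no longer a call there, and −0.53 without wild-type 2. The acid pump genes of parietal cells (Atp4a and Atp4b) and gastric lipase (Lipf) of chief cells were not detected on any of the 9 arrays. The list means for Brunner glands and mucous neck cells lay between 10.17 and 10.92 on the 4 arrays and between 8.22 and 8.63 on the diet arrays. The part of the position along the gut in the differences between groups was not tested. In whole tissue, fewer cells of a type and less RNA per cell cannot be told apart.

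**Figure D3:**
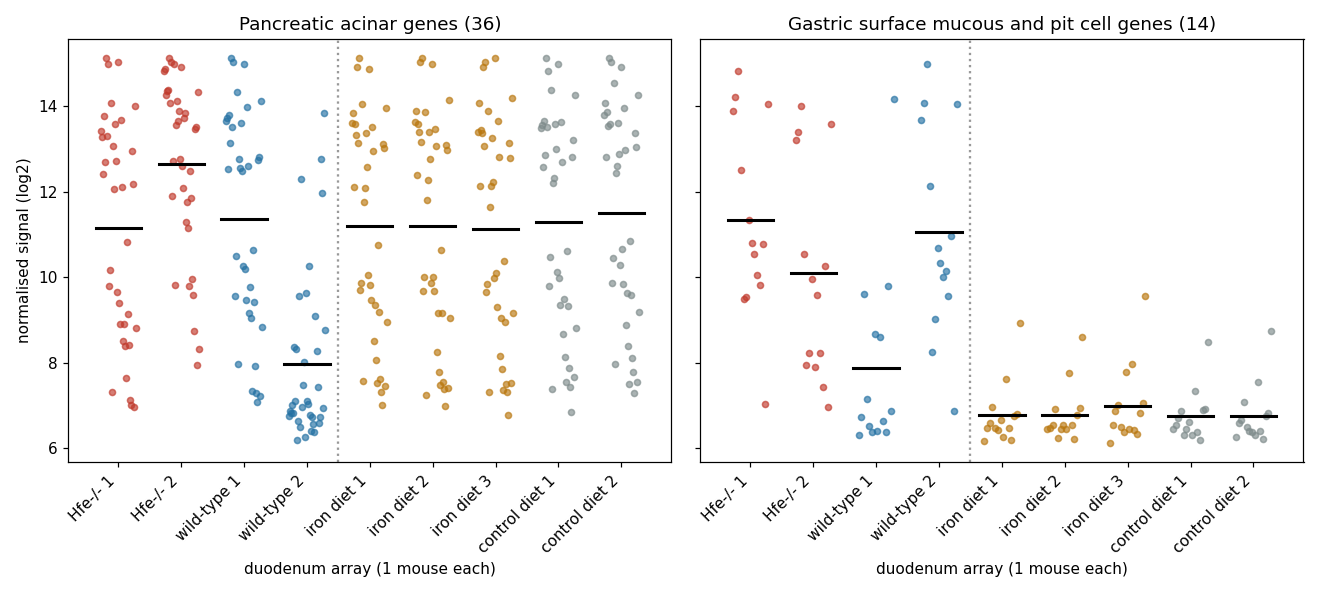
Normalised log2 signal (y axis) of 36 pancreatic acinar genes (left) and 14 gastric surface mucous and pit cell genes (right) on each of the 9 duodenum arrays (x axis), 1 point per gene and a bar at the mean. Acinar genes are low on wild-type 2 (mean 7.98) and high on Hfe-/- 2 (12.66), and gastric genes are low on wild-type 1 (7.87) and on the diet arrays.

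Reg lectins, secreted C-type lectins made by acinar cells and by the gut epithelium, held calls in 1 direction. Of 5 tested, 3 were called higher (60%, against 1.44% of all probes) and 0 lower, and the median difference was 1.98, or 0.78 without Hfe-/- 2. Of the 3, Reg2 was detected on 0 wild-type arrays and so had to differ, and Reg3d was detected on 1 wild-type array. The share of 60% is thus partly fixed by the detection filter. Reg3b, an antibacterial lectin of the small intestine, read 10.87 and 9.85 on the Hfe-/- arrays and 7.65 and 7.35 on the wild-type arrays. The groups were far apart, with a difference of 2.86 (SE 0.34) and an adjusted limma p of 0.409, and it was called whichever array was left out (2.35 to 3.38). All 5 diet arrays, at 11.50 to 13.66, were above both groups. Reg2 read 8.12 and 11.78 in Hfe-/- and was not detected in wild-type duodenum (6.55 and 6.51), at least 9.44-fold. Its difference of 3.42 fell to 1.59 without Hfe-/- 2 and was 5.25 without Hfe-/- 1, and the diet arrays, at 7.69 to 9.95, were again above wild type. Reg3d read 7.49 and 9.88 against 7.15 and 6.26, and its call was lost without Hfe-/- 2 (difference 0.78) or wild-type 2 (1.53). Reg1 read 13.44 and 14.16 against 13.59 and 13.79 and overlapped. Reg2 and Reg3d, but not Reg3b, were highest on Hfe-/- 2, the array with the highest acinar signal, and the part of that in their difference was not tested.

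All 8 tested genes of the kallikrein 1 family, serine proteases of glands that cleave kininogens, had separate groups with Hfe-/- above wild type (14.3% of all probes did), and 5 were called higher (1.44% of all probes). Of the 11 members with a probe, 8 and 8 were detected on the Hfe-/- arrays and 5 and 4 on the wild-type arrays. The detection filter thus favoured members that were bright in Hfe-/-, and the shares are a description only. The probes of these close relatives may share transcripts. Klk1b5 read 11.55 and 12.59 against 11.03 and 10.80, a difference of 1.15 (SE 0.34), and Klk1b27 read 11.34 and 12.70 against 10.77 and 10.91, a difference of 1.18 (SE 0.42). These 2 were called whichever array was left out, but without Hfe-/- 2 the differences were 0.63 and 0.50. The family median of 0.92 was 0.42 without Hfe-/- 2 and 1.46 without Hfe-/- 1. Hfe-/- 2 was highest in 8 of 8 kallikreins, as it was in most acinar genes. Wild-type 2 was lowest in 7 of 8, but unlike in the acinar genes it was not far below the rest. The family mean was 9.47 and 10.50 in Hfe-/-, 9.17 and 8.95 in wild type, and 8.34 to 9.01 on the diet arrays.

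Heat shock proteins and their co-chaperones, which fold and refold proteins in the cytosol and other compartments, made up the most stable group of lower calls. Of 13 tested genes 9 were lower in Hfe-/- duodenum, 6 were called lower (46.2%, against 1.19% of all probes) and 0 higher, and all 6 were called whichever array was left out. None passed the adjusted limma test, at which 0 of all probes were lower. The list mean was 8.83 and 9.02 on the Hfe-/- arrays and 9.42 and 9.31 on the wild-type arrays. Stip1, which links Hsp70 to Hsp90, read 8.64 and 8.59 against 9.44 and 9.61, a difference of −0.91 (SE 0.12, limma adjusted p = 0.484). Serpinh1, the collagen chaperone of the endoplasmic reticulum, read 8.75 and 9.13 against 10.21 and 10.06, a difference of −1.20 (SE 0.16). The groups of both were separate by more than their spread. Hspb1, a small heat shock protein, read 8.10 and 8.49 against 9.60 and 9.17, and Hsph1, a nucleotide exchange factor of Hsp70, 8.96 and 9.24 against 10.19 and 9.90. Their differences were −1.09 (SE 0.21) and −0.94 (SE 0.16). The Hsp90 co-chaperones Ahsa1 and Fkbp4 differed by −0.77 (SE 0.12) and −0.69 (SE 0.11). The list median of −0.36 was −0.10 with median scaling, where all probes had a median of 0.05; every one of these 6 genes stayed lower there, but only Hspb1 (−0.85, unadjusted limma p of 0.0355) still met the looser rule.

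Signals of this list also varied in the diet experiment, where the list mean was 8.73, 8.71 and 8.95 on the iron-diet arrays and 9.48 and 9.70 on the control-diet arrays. Hsph1 read 8.51, 8.81 and 9.72 on the iron diet and 11.27 and 11.57 on the control diet. In liver, Hsph1 read 8.97, 9.96 and 9.13 in Hfe-/- and 10.28 and 10.64 in wild type, a difference of −1.11 (SE 0.27, limma adjusted p = 0.316). Stip1 in liver differed by −0.87 (SE 0.15) and Serpinh1 by −0.72 (SE 0.09), and all Hfe-/- livers lay below both wild-type livers in both genes. The groups of Hspb1 (−0.74, SE 0.26), Fkbp4 (−0.40, SE 0.16) and Ahsa1 (−0.33, SE 0.14) overlapped in liver. None of the 6 passed the adjusted limma test there. According to the methods liver and duodenum came from the same mice, so the tissues are not independent samples.

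Promoters of Hsph1 and Hspd1, the mitochondrial chaperonin that differed by −0.36 (SE 0.12), are shown because these 2 list members hold a heat shock element. Capitals mark GAANNTTCNNGAA, or TTCNNGAANNTTC on the other strand, the inverted repeat to which heat shock factor binds, and in Hspd1 overlapping copies form 1 run. Promoters of 12 of 13 tested members were found in RefSeq (GRCm38.p6), 3 of which (Hsph1, Hspd1 and Chordc1) held it, against 179 of 27025 genes (0.662%). Stip1, Serpinh1, Hspb1, Ahsa1 and Fkbp4 were not among the 3. Hsph1 lies on the minus strand at chr5:149636287-149636586, with the element 37 bases after the gene start in this promoter, and Hspd1 on the minus strand at chr1:55087883-55088182.
Hsph1: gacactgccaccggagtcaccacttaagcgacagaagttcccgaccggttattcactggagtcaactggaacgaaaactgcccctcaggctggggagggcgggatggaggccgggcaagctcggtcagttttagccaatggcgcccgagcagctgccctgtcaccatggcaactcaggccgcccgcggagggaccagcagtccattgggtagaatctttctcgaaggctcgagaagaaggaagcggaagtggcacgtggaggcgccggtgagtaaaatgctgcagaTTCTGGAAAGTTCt
Hspd1: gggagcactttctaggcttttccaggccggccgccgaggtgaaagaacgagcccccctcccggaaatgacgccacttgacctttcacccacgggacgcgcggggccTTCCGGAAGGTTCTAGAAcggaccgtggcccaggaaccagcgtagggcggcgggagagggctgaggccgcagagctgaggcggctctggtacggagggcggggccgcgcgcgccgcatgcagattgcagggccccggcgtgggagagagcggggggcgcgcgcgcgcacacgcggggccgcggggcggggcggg

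Products of Paneth cells, which secrete antimicrobial peptides at the crypt base, had lower means in Hfe-/- duodenum for all 9 tested genes, as 56.6% of all probes had. Of these, 3 were called lower (33.3%, against 1.19% of all probes). The median difference of −0.33 was −0.07 without Hfe-/- 1, −0.20 without wild-type 1, −0.73 without wild-type 2 and −0.81 without Hfe-/- 2. The alpha-defensin Defa3 read 13.62 and 13.61 on the Hfe-/- arrays and 14.68 and 14.29 on the wild-type arrays, a difference of −0.87 (SE 0.16). Defa20 read 12.47 and 13.28 against 14.77 and 13.87, a difference of −1.44 (SE 0.38). Both were called whichever array was left out, with −0.99 for Defa20 without wild-type 1 and −1.89 without wild-type 2. Defa24 read 10.96 and 11.43 against 12.60 and 11.85, and its call was lost without Hfe-/- 1 (−0.80). Alpha-defensins are close paralogs whose probes may share transcripts. The list mean was highest on wild-type 1 (11.36) and lowest on Hfe-/- 1 (10.21), with 10.74 and 10.75 on the remaining arrays. The gastric list had its lowest mean on wild-type 1 and its highest on Hfe-/- 1, and its part in the Paneth difference was not tested.

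MHC class II genes, through which antigen-presenting cells and enterocytes show peptides to T cells, had lower means in 8 of 8 cases, with a median difference of −0.32 that was −0.16 without wild-type 1 and −0.58 without wild-type 2. H2-Ab1 read 9.39 and 9.44 against 10.65 and 9.94, Cd74, the invariant chain, 9.29 and 9.24 against 10.58 and 9.78, and H2-Eb1 8.30 and 8.35 against 9.58 and 8.73. These 3 were called lower (37.5%, against 1.19% of all probes). The Hfe-/- arrays were near each other and wild-type 1 stood highest, so that without wild-type 1 the differences shrank from −0.88 to −0.53 for H2-Ab1, from −0.91 to −0.51 for Cd74 and from −0.83 to −0.41 for H2-Eb1. H2-Ab1 was called whichever array was left out. Cd74 lost its call without Hfe-/- 2 at a nearly equal difference (−0.89), and H2-Eb1 lost its call without wild-type 1 and, at nearly equal differences, without Hfe-/- 1 (−0.81) or Hfe-/- 2 (−0.86). Classical MHC class I did not go the same way. H2-K1 was called higher with 9.27 and 9.26 against 8.53 and 8.66, a difference of 0.67 (SE 0.11), whereas Psmb8, an immunoproteasome subunit that cuts peptides for class I, was called lower with 9.83 and 9.69 against 10.68 and 10.30, a difference of −0.74 (SE 0.16). In the interferon and class I list as a whole, 4 of 12 genes were higher in the mean, 8 lower and the median difference was −0.06, changing to 0.02 with median scaling.

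Replication-dependent histones, which package newly made DNA, had lower means in 23 of 28 cases, and 11 were called lower (39.3%, against 1.19% of all probes) and 0 higher, with a median difference of −0.24. The median difference was −0.32 without Hfe-/- 1 and −0.33 without wild-type 1. H2bc7 read 9.24 and 9.29 against 9.91 and 10.49, a difference of −0.94 (SE 0.20). H2bc9 read 8.69 and 8.57 against 9.30 and 9.64, and H2ac10 11.97 and 11.99 against 13.01 and 12.54. These 3 were called whichever array was left out and the other 8 were not. Histone genes are nearly identical in sequence, so the 11 calls are uncertain as separate genes. Among 13 genes of crypt stem and dividing cells 11 were lower and 1 was called lower (7.69%, against 1.19% of all probes). The call was the replication helicase subunit Mcm5 (8.85 and 8.77 against 9.76 and 9.11). Its difference of −0.63 was not a call without Hfe-/- 1 (−0.67), Hfe-/- 2 (−0.59) or wild-type 1 (−0.30).

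**Figure D4:**
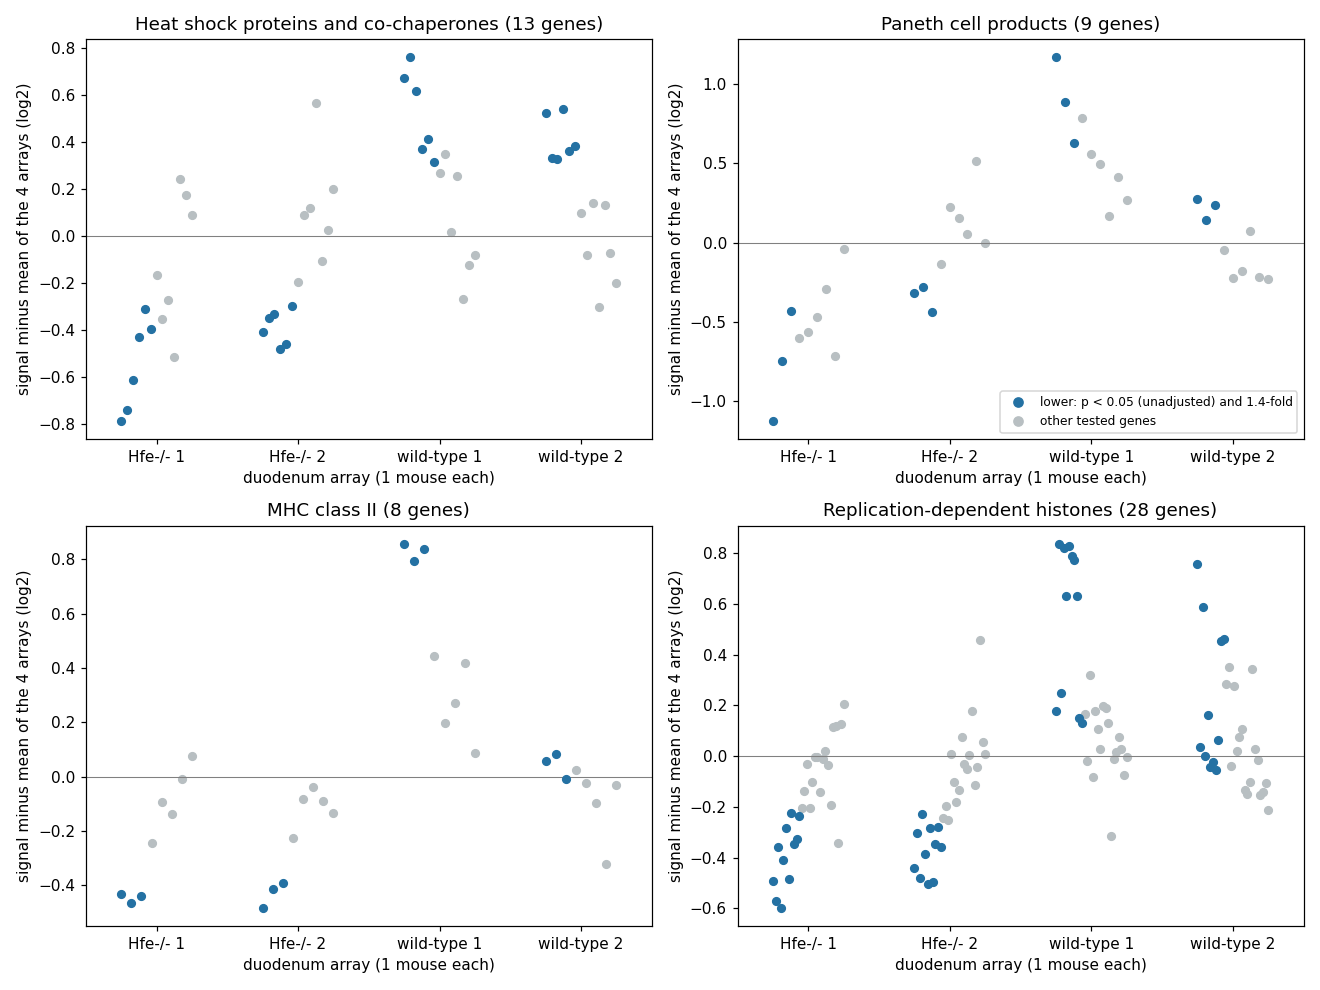
Signal of each tested gene minus its mean over the 4 arrays (y axis, log2) on each array (x axis) for heat shock proteins, Paneth cell products, MHC class II and histones, with genes called lower in blue and the others in grey. The 6 called heat shock genes lie below their mean on both Hfe-/- arrays and above it on both wild-type arrays, whereas the called MHC class II genes are highest on wild-type 1 and near their mean on wild-type 2.

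Enterocyte genes were called in both directions. Alpi, the intestinal alkaline phosphatase of the brush border, had the smallest p among higher named genes, with 10.98 and 10.84 against 9.72 and 9.88, a difference of 1.12 (SE 0.13, unadjusted limma p of 0.000173, limma adjusted p = 0.359). Khk, ketohexokinase, the first enzyme of fructose breakdown, was lower with 8.94 and 8.47 against 10.15 and 9.99, a difference of −1.36 (SE 0.18, limma adjusted p = 0.484). Both were called whichever array was left out. Guca2a, the hormone guanylin, read 8.27 and 8.51 against 9.92 and 8.88, and its difference of −1.01 was −0.49 without wild-type 1 and not a call without Hfe-/- 1 (−0.89). Rbp2, the retinol carrier of the enterocyte, read 10.46 and 11.26 against 11.85 and 11.55, and its difference of −0.84 was −0.44 without Hfe-/- 1. Cyp26b1, which degrades retinoic acid, read 7.41 and 7.68 against 9.63 and 8.85. At −1.70 (SE 0.27) its difference was called whichever array was left out (−1.30 to −2.09) and with median scaling (−1.48), and the diet arrays read 6.98 to 7.98. Of 13 genes of fat uptake and chylomicron assembly 11 were lower in the mean and Dgat2, which makes triglyceride, was called lower (9.73 and 10.23 against 10.48 and 10.45), but not without Hfe-/- 1 (−0.24), wild-type 1 (−0.48) or wild-type 2 (−0.50), and the list means of 9.32 and 9.98 against 9.95 and 9.87 put only Hfe-/- 1 apart.

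Among other epithelial cells, 11 of 13 tested enteroendocrine genes were lower, with a median difference of −0.28. In this list 2 were called lower (15.4%, against 1.19% of all probes) and the groups were separate in 8 (61.5%, against 20.9%). Chgb, a granin of hormone granules, read 8.56 and 8.53 against 9.47 and 9.27, a difference of −0.83 (SE 0.12), and was called whichever array was left out. Cholecystokinin (Cck) read 7.20 and 7.56 against 8.24 and 7.73, and its call was lost without Hfe-/- 1 (−0.43) or wild-type 1 (−0.36). Goblet cell genes were mixed: Fcgbp, a mucus protein, was lower by the looser rule (7.51 and 7.42 against 8.02 and 8.05) whichever array was left out, Spink4, a small secreted protein, was lower (11.81 and 11.32 against 12.64 and 12.14) and Agr2, which folds mucins, was higher (8.28 and 7.63 against 6.96 and 7.41). Spink4 lost its call without Hfe-/- 2 (−0.58), and Agr2 without Hfe-/- 1 (0.45) or wild-type 1 (0.55). Metallothionein 1 (Mt1), which binds zinc and copper, was higher with 13.32 and 13.39 against 11.96 and 12.68, a difference of 1.04 (SE 0.24). It was called whichever array was left out, at 0.68 without wild-type 1 and 1.4 without wild-type 2. Gpx2, the glutathione peroxidase of the gut, was lower with 10.81 and 10.37 against 11.57 and 11.27, a difference of −0.83 (SE 0.19).

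Genes of the endoplasmic reticulum and of the amino acid response were higher more often than lower. Of 25 endoplasmic reticulum and unfolded protein response genes 16 were higher, with a median difference of 0.14. Calls were 4 higher (16%, against 1.44% of all probes) and 1 lower (4%, against 1.19%), the disulfide isomerase Pdia4. Sec11c, a subunit of the signal peptidase, read 10.25 and 9.99 against 8.80 and 9.19, a difference of 1.13 (SE 0.18). Atf4, the transcription factor of the integrated stress response, read 9.86 and 9.81 against 9.17 and 9.15, a difference of 0.67 (SE 0.11) on this probe, while its other probes differed by 0.23 and 0.00. Dnajb9, a chaperone cofactor of the same compartment, read 7.55 and 7.23 against 6.55 and 6.86. Sec11c, Atf4 and Dnajb9 were called whichever array was left out, and Pdia4, at −0.53 (SE 0.15), was not without Hfe-/- 2 (−0.38) or wild-type 2 (−0.42). Nupr1, a stress-induced gene of the pancreas, read 12.05 and 12.43 against 10.77 and 11.77 and was not called without wild-type 1 (0.47) or Hfe-/- 2 (0.78). Of 12 genes of the amino acid response and of serine and glycine metabolism 10 were higher, with a median difference of 0.64 that was 0.18 without Hfe-/- 2 and 1.04 without Hfe-/- 1. Asns was the 1 gene called higher (8.33%, against 1.44% of all probes). Asparagine synthetase (Asns) read 9.58 and 10.21 against 8.97 and 8.95, a difference of 0.93 (SE 0.22), and was called whichever array was left out. Slc6a9, a glycine transporter from the list of enterocyte transporters, read 9.12 and 10.36 against 8.69 and 8.37. Its difference of 1.21 (SE 0.40) was 0.59 without Hfe-/- 2, and it was called whichever array was left out. Hfe-/- 2 was highest in 9 of the 12 genes of the amino acid response list, as it was for acinar genes, and the part of that was not tested.

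The remaining named genes with the smallest p belonged to none of the lists above. Higher were Idh2 (8.93 and 9.11 against 8.21 and 8.0) and Mdh2 (10.20 and 10.16 against 9.28 and 9.51), mitochondrial dehydrogenases of the citrate cycle and its neighbours. Aldh6a1, a mitochondrial enzyme of valine breakdown, differed by 0.73 (SE 0.12), Chchd7 by 0.86 (SE 0.13) and Ecpas, a proteasome adaptor, by 0.88 (SE 0.13). Pabpc1, the poly(A)-binding protein, differed by 1.09 (SE 0.16) on its brightest probe, but the median over its probes was −0.02. Lower were Hagh, a glyoxalase, with 8.56 and 8.58 against 9.43 and 9.34, Psme1, a proteasome activator, with 9.97 and 9.73 against 10.79 and 10.59, and Raly, an RNA-binding protein, with 9.04 and 8.99 against 9.74 and 9.66. These 9 were named for separate groups and a small p, and the adjusted limma p of each was between 0.493 and 0.593. Erdr1 (6.50 and 6.91 against 8.66 and 7.83) and the DNA damage binding protein Ddb1 (9.06 and 8.32 against 9.50 and 10.39), which the study names for this tissue, were also called lower. Ddb1 was not called without Hfe-/- 2 (−0.89), and the study's Q-RT-PCR showed it slightly higher.

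**Figure D5:**
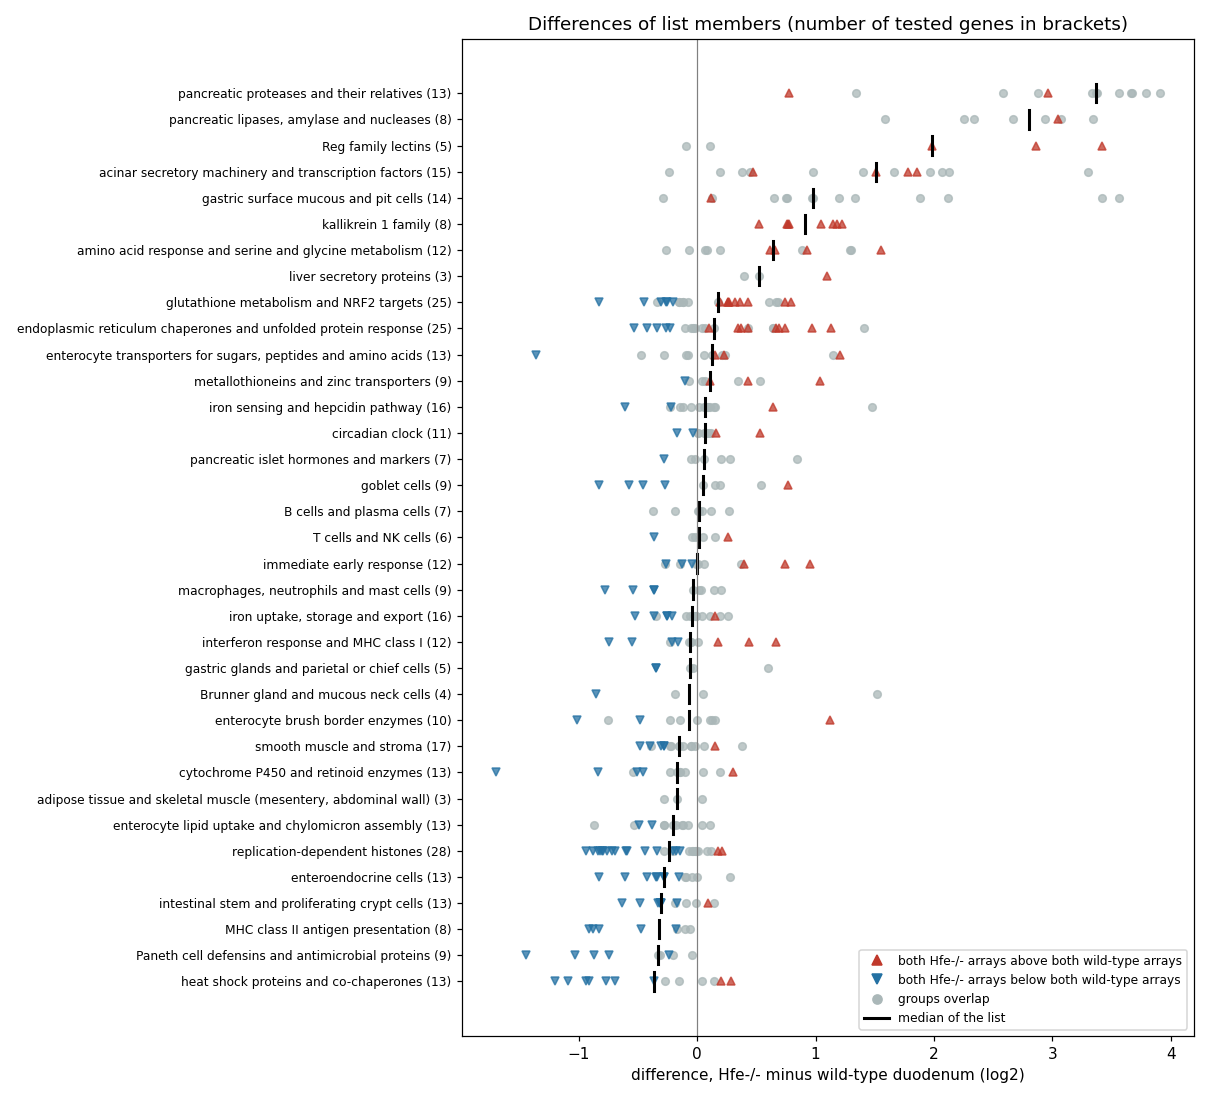
Difference between Hfe-/- and wild-type duodenum (x axis, log2) of the tested members of 35 gene lists (y axis, number of genes in brackets), with triangles where the groups are separate and black bars at list medians. Pancreatic, Reg and gastric lists spread furthest to the right, and Paneth, MHC class II and heat shock lists have medians of −0.33, −0.32 and −0.36.

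The study ranked all probes by SD over the arrays, kept the top 0.6% and asked for a 1.4-fold change without filtering by p-value. Applied to the signals used here, with every probe counted whether or not it has a symbol, this rule took 177 probes as higher and 59 as lower from 280. In 113 of the 177 and 25 of the 59 the groups overlapped, and 66 of the 236 had an unadjusted limma p under 0.05. Among the 177 were 37 probes of acinar genes and 14 of stomach genes. The study also ran an empirical Bayes test, which it took as a guide only. It tested selected duodenal genes by Q-RT-PCR in more mice as well. The Hfe effect differed from the effect of the iron diet in duodenum at 1 of 18474 probes (0.00541%), and from the Hfe effect in liver at 4 of 16599 (0.0241%), by limma at an adjusted p under 0.05. The first of these was ILMN_2417233, which no diet array of the duodenum detected.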

How the data were processed

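Duodenal RNA was hybridised to Illumina Sentrix Mouse-6 BeadChips, with 1 mouse per array. The authors deposited, for each probe and array, a linear mean bead intensity that was not normalised, together with a detection p-value from the scanner software. The authors also deposited log2 values, whose duodenal columns correlated with the signal of the same probe at only 0.00596 to 0.00929 (liver 0.987 to 1), so it was not used. The 46643 entries held 46632 probes, as 11 duplicated identifiers were averaged. A platform annotation gave 29976 probes 1 symbol, 10 several and 16646 none, and 12 symbols were updated. Probes with several symbols were not named.

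Intensities of the 9 duodenum arrays were quantile normalised, as in the study's methods, and log2 transformed. The 5 liver arrays were treated the same way together with the other liver arrays of the series. Testing was limited to probes that 2 or more of the 4 arrays detected (detection p under 0.05), and was done with lmFit and eBayes (limma 3.58.1 in R 4.3.3) and Benjamini-Hochberg adjustment over all tested probes. Each gene was read from its probe with the highest mean over the duodenum arrays. Of 509 listed genes with a probe, 394 were tested and 115 were below the detection filter. A gene that passed the filter only through the group in which it was bright had to differ.

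The 35 gene lists, the named genes and the comparisons were chosen with earlier results of these data known. Named were Hfe, the 10 genes in each direction with separate groups, a 1.4-fold change and the smallest p, the 3 brightest and the 3 most different members of each list, all acinar and stomach genes, and genes that the study names. Cybrd1, Heph, Chordc1, Dnajb9 and Pdia4 were added after their values were seen. The fits were checked on simulated data. Alternatives changed the normalisation, the background correction (normexp, offset 50), the filter, the arrays in the fit, the variance model and the replicate block, or left out 1 array, in which case the lone array was assumed to vary like the other group. The number of arrays limits the precision.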

Additional observations from a re-analysis of the deposited data

Results flagged for a closer look

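The effect of the Hfe knockout on 1 probe differed from the effect of the iron diet in duodenum. For ILMN_2417233 the Hfe effect minus the diet effect was 2.27 (SE 0.13, limma adjusted p = 0.000897). The probe was not detected on any wild-type or diet array of the duodenum. The comparison thus restates its duodenal difference of 2.31. It was not past the threshold when arrays were scaled by their median.

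Between tissues, 4 probes had a Hfe effect in duodenum that differed from that in liver. ILMN_2417233 was higher in both tissues, by 2.31 in duodenum and 4.09 in liver, so that the difference of the effects was −1.79 (SE 0.12, limma adjusted p = 2.96e-06). Khk read 12.01, 12.09 and 11.81 in Hfe-/- liver and 11.83 and 11.52 in wild-type liver, an effect of 0.30 against −1.36 in duodenum, and the effects differed by −1.66 (SE 0.23, limma adjusted p = 0.0184). ILMN_1254739, which has no symbol, read 13.73 and 13.62 in Hfe-/- and 14.92 and 14.77 in wild-type duodenum and was not detected on any of the 5 liver arrays, and its effects differed by −1.17 (SE 0.15, limma adjusted p = 0.0132). Chgb was likewise not detected in liver, and its effects differed by −0.93 (SE 0.13, limma adjusted p = 0.0188). For these 2 the comparison of tissues thus restates the duodenal difference. With median scaling none of the 4 was past the threshold. Liver and duodenum came from the same mice per the methods, but the fit took the arrays as independent.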

How the results depend on the processing

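With 2 mice per group, few results were firm. The 1 probe past the threshold became 0 with median scaling (80 probes then had an unadjusted limma p under 0.05), 0 among probes detected on all 4 arrays, where it was not tested, and 0 with the replicate block (adjusted p = 0.0931). Under the other settings with all 4 arrays its adjusted p lay between 6.97e-05 and 0.0281. Leaving out 1 array gave between 0 and 33 probes. The looser rule took 69 higher and 11 lower probes with median scaling, and 290 to 606 higher and 241 to 524 lower probes without 1 array. Deviations of arrays with the same replicate number correlated at −0.46. With 2 arrays per group the crossed pairing gives the mirror value of 0.46, so neither shows whether mice were paired. Pairing Hfe-/- 1 with wild-type 2 instead, an alternative added after seeing the data, gave 61 probes past the threshold and 414 higher calls.

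List medians moved as follows. With median scaling the heat shock list was at −0.10 and the histones at −0.12. Among probes detected on all 4 arrays the Reg lectins were at 0.11 and the heat shock list at −0.53. With the control-diet arrays added to the controls the Reg lectins were at 0.05, Paneth products at −0.99, MHC class II at −1.0, the heat shock list at −0.63, the histones at −0.36 and the glutathione and NRF2 list at −0.04 (otherwise 0.18). Without 1 array the ranges were 0.78 to 2.42 for Reg lectins, −0.81 to −0.07 for Paneth products, −0.49 to −0.27 for heat shock, −0.33 to −0.26 for histones, 0.42 to 1.46 for kallikreins, −0.02 to 0.21 for glutathione and NRF2 genes and −0.11 to 0.09 for adipose and muscle genes (otherwise −0.17).

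Among named genes, the sign changed for Fth1 with median scaling (0.01), for Pabpc1 as the median over its probes (−0.02) and for Muc6 with 4 control arrays (2.04). Without 1 array, Gkn2 ranged from −0.12 to 7.24, Gkn1 from −0.24 to 7.07, Tff1 from −0.57 to 4.80 and Amy2a5 from 0.00 to 5.35. With median scaling, 0 probes differed between the Hfe and diet effects and 0 between tissues. The causes of these changes were not tested.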

Other observations

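Circadian clock genes were detected in part, with 11 of 16 tested, 9 higher in the mean and a median difference of 0.07. Of the 11, 1 was called higher (9.09%, against 1.44% of all probes). The transcriptional repressor Bhlhe40 (Dec1) was the one called higher, with 9.70 and 9.82 on the Hfe-/- arrays and 9.14 and 9.32 on the wild-type arrays, a difference of 0.53 (SE 0.12). It was 0.44 without wild-type 1 and 0.47 without Hfe-/- 2, both below 1.4-fold. Among 12 immediate early genes, 6 were higher, 6 lower and 2 called higher (16.7%, against 1.44% of all probes), with a median difference of 0. Fos, a subunit of the AP-1 factor, read 9.09 and 9.14 against 8.01 and 8.73, and Klf4, a zinc finger factor of differentiating epithelium, 9.18 and 8.33 against 7.50 and 8.11. Wild-type 1 was the low array in both. Without it the differences were 0.38 for Fos and 0.64 for Klf4 in place of 0.74 and 0.95, and neither was a call.

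The glutathione S-transferases Gsta1 and Gsta3, which conjugate glutathione to reactive compounds, were called higher in a list of 25 with 13 higher and 12 lower. They were 8% of the list, against 1.44% of all probes called higher. The 1 gene of the list called lower (4%, against 1.19% of all probes) was Gpx2, and it was called whichever array was left out. Gsta1 read 11.79 and 11.29 against 10.57 and 11.04, and Gsta3 10.28 and 10.02 against 8.92 and 9.80. Wild-type 1 was again lowest, and without it neither was called (0.50 and 0.35). Gsta1 read 12.40, 12.25 and 12.57 on the iron diet and 11.05 and 10.25 on the control diet. Gsta3 read 10.69, 10.32 and 10.67 on the iron diet and 8.71 and 8.35 on the control diet. Both were higher on the iron diet, by 1.75 (SE 0.25, limma adjusted p = 0.0363) and 2.03 (SE 0.24, limma adjusted p = 0.0213).

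Leukocyte lists gave no calls. The 7 tested genes of B and plasma cells had a median difference of 0.02, the 6 of T and NK cells 0.01, and the 9 of macrophages, neutrophils and mast cells −0.03. Of 11 liver secretory genes 3 were detected. One of them, Itih4, an inter-alpha-trypsin inhibitor chain, read 6.85 and 8.43 in Hfe-/- and was not detected in wild-type duodenum (6.49 and 6.59), at least 1.90-fold, with a difference of 0.31 without Hfe-/- 2. Smooth muscle and stroma genes had lower means in 14 of 17 cases, against 56.6% of all probes, with 0 calls and a median difference of −0.15 that was −0.04 without wild-type 1 and −0.41 without wild-type 2.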
